A study of Mus musculus with 8 samples.

Results

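The developmental pluripotency-associated (Dppa) genes *Dppa2*, *Dppa3*, *Dppa4* and *Dppa5a* were examined in mouse ESCs that carry wild-type or RNA-binding-deficient BAZ2A. The members were chosen by their symbols, with 1 entry kept for each, and make up 4 of the 50901 genes measured. They were picked with the comparison below already known, so their differences between conditions are given as a description, with a standard error and no test. Another entry of the same name, *Dppa1*, was at 0 in all 8 libraries.

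RNA was sequenced from 2 derivatives of E14, a line of mouse ESCs, both grown in N2B27 medium with LIF and 2i (inhibitors that hold ESCs in a naive state). BAZ2A is the large subunit of a chromatin remodelling complex, and its TAM domain binds RNA. ESC + F/H-BAZ2Ar WT (BAZ2A-WT ESCs) hold a Flag- and HA-tagged wild-type *Baz2a* transgene that resists the siRNA, inserted by the piggyBac transposase. ESC + F/H-BAZ2Ar ΔTAM (BAZ2A-ΔTAM ESCs) hold the same transgene without the TAM domain. Both were transfected with siRNA against *Baz2a* and collected 3 days later, in 4 libraries each. The methods describe isolation of single-cell clones, so BAZ2A genotype and clone cannot be told apart here. Nothing says that the libraries of a condition came from separate cultures, and p-values then measure only the spread between these libraries.

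DPPA2 and DPPA4 are small chromatin proteins with a SAP domain that work as a heterodimer, hold the promoters of developmental genes in a poised state free of DNA methylation, and help to activate the 2-cell programme of the early embryo. DPPA3 (also Stella or PGC7) is a maternal factor and a marker of primordial germ cells, which keeps UHRF1, the cofactor of the maintenance DNA methyltransferase DNMT1, away from chromatin. DPPA5A (also ESG1) is an RNA-binding protein with a KH domain and a marker of naive ESCs.

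The 4 coding sequences are short, and 3 of the genes have near-copies elsewhere in the genome that a 100-base read may not tell apart. In GENCODE vM21 (mm10) *Dppa2* encodes 301 codons, *Dppa3* 150, *Dppa4* 296 and *Dppa5a* 118. *Dppa3* and its pseudogene on chromosome X, *Dppa3-ps*, were identical at 98.2% of 451 aligned coding bases, with 8 mismatches. The pair is shown from coding base 3 to 92, with the 2 bases that differ in capitals:
Dppa3: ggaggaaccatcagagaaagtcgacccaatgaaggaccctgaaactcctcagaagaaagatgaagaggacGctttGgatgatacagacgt
Dppa3-ps: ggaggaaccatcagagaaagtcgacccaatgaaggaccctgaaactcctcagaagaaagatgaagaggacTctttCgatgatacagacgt

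*Dppa5a* matched the pseudogenes *Dppa5b* and *Dppa5c*, on the same chromosome 9, at 96.3% of 299 aligned columns. The first 90 coding bases of *Dppa5a* are shown with those of *Dppa5b*, which *Dppa5c* shares, and with the 3 differing bases in capitals:
Dppa5a: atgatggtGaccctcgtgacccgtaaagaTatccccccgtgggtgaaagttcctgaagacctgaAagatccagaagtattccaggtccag
Dppa5b: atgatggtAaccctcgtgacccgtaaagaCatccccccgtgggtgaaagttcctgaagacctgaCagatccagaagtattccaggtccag

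*Dppa2* and *Dppa4* are neighbours and relatives, but far less alike. Their best local alignment held 60.9% identity over 350 columns, with no run of identical bases longer than 11. A stretch without gaps, from coding base 750 to 839 of *Dppa2* and from 780 to 869 of *Dppa4*, shows the 30 differing bases in capitals:
Dppa2: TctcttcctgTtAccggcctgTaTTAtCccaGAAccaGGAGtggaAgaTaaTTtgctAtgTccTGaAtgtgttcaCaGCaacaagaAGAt
Dppa4: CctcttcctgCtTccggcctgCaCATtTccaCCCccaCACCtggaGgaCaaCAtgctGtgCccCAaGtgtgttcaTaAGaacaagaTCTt

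Reads of *Dppa2* and *Dppa4* can therefore be told from each other, while part of each can also be placed on pseudogenes. Of the 1849 windows of 100 bases in the *Dppa2* transcript, 561 (30.3%) were also found in *Gm8023*, *Gm9298* or *Gm9788*. For *Dppa4*, 232 of 1380 windows (16.8%) were found in *Gm14058* or *Gm5501*. For *Dppa5a*, 16 of 520 windows (3.08%) were found in another gene, and for *Dppa3* none of 734 were. How reads with several placements were counted is not given in the sources used here. Of 10 such copies, 7 have an entry, and none of these held more than 4 reads in any library. *Dppa5b*, *Dppa5c* and *Gm9298* were not analysed here.

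The deposited RPKM count reads per kilobase and scale them to the library total, where the kilobases run from gene start to gene end with introns included, so that long genes appear low. Whole reads could be recovered from them, with 7255617 to 7686799 reads on genes in BAZ2A-WT libraries and 6560880 to 8662851 in BAZ2A-ΔTAM libraries. All 7 ESC markers were present, with sums of 84.7 to 87.3 RPKM in BAZ2A-WT ESCs and 72.5 to 78.2 RPKM in BAZ2A-ΔTAM ESCs. The sum was thus lower in every BAZ2A-ΔTAM library, and the part of this in the results was not tested. None of 7 fibroblast and 7 primitive endoderm markers reached the level for testing, 0.1 RPKM on average, and *Col3a1*, *Dcn*, *Lum*, *Prl3d1* (trophoblast) and *Fgf5* (primed epiblast) were at 0 throughout. Reads on the primitive endoderm markers, not scaled to depth, were 47 to 55 in BAZ2A-WT and 63 to 82 in BAZ2A-ΔTAM libraries, without overlap. Their sums in RPKM did overlap (0.0183 to 0.0445 and 0.0361 to 0.0612 RPKM). The part of these markers in the results was not tested. The fibroblast markers summed to 0.100 to 0.113 RPKM in BAZ2A-WT and 0.0931 to 0.131 RPKM in BAZ2A-ΔTAM libraries. The other trophoblast markers summed to 0.407 to 0.458 RPKM in BAZ2A-WT and 0.367 to 0.567 RPKM in BAZ2A-ΔTAM ESCs, and those of primed epiblast to 1.01 to 1.18 and 0.872 to 1.07 RPKM. *Baz2a* reads, from the transgene and from what remains of the endogenous transcript, lay between 9.95 and 11.2 RPKM in BAZ2A-WT ESCs and between 17.0 and 18.9 RPKM in BAZ2A-ΔTAM ESCs. The *Baz2a* RNA level was thus not matched between the conditions, and its part in the results was not tested. For the protein, the paper reports similar BAZ2A amounts in both lines by western blot.

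In BAZ2A-ΔTAM ESCs *Dppa3* and *Dppa2* were higher and *Dppa4* and *Dppa5a* lower than in BAZ2A-WT ESCs. The mean level was 4.25-fold that of BAZ2A-WT ESCs for *Dppa3* and 1.33-fold for *Dppa2*, whereas it was 0.909-fold for *Dppa4* and 0.823-fold for *Dppa5a*. For each of the 4 genes the conditions did not overlap, as for 37.2% of the 9000 genes tested (20.5% higher and 16.7% lower in BAZ2A-ΔTAM ESCs). Nothing is read from that count, since the comparison chose the genes. In bulk samples a change in the share of cells that express a gene and a change in RNA per cell cannot be told apart.

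**Figure D1:**
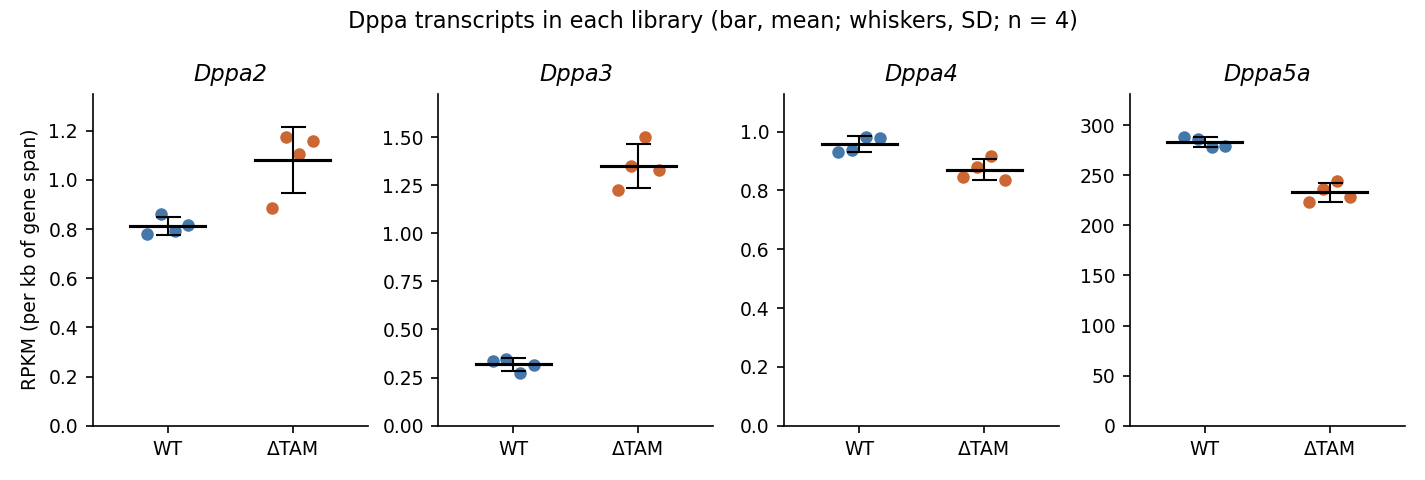
RPKM (per kilobase of gene span, axis from 0) of *Dppa2*, *Dppa3*, *Dppa4* and *Dppa5a* in the 4 BAZ2A-WT (blue) and 4 BAZ2A-ΔTAM (orange) libraries, where each point is a library, the bar the mean and the whiskers the SD. *Dppa3* goes from 0.318 to 1.35 RPKM on average, *Dppa5a* from 283 to 233 RPKM, and a single BAZ2A-ΔTAM library of *Dppa2* (0.885 RPKM) lies near the BAZ2A-WT range.

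*Dppa2*, which encodes a subunit of the DPPA2-DPPA4 heterodimer, lies on chromosome 16, on the plus strand, where the deposited entry runs from 48310477 to 48319723 (mm10). GENCODE vM21 starts the gene at 48303908, and any reads between the starts are outside the entry. BAZ2A-WT libraries had 0.779, 0.863, 0.790 and 0.815 RPKM (356 to 411 reads). BAZ2A-ΔTAM libraries had 0.885, 1.18, 1.11 and 1.16 RPKM (370 to 622 reads). Replicate 1 of BAZ2A-ΔTAM ESCs was the low library, only 0.0221 RPKM above the highest BAZ2A-WT library. The means were 0.812 ± 0.0374 RPKM (SD, n = 4) and 1.08 ± 0.134 RPKM (SD, n = 4). On the log2(RPKM + 0.1) scale, on which all log2 fold changes here were computed unless said otherwise, the difference was 0.37 ± 0.083 (SE), with a 95% interval of 0.17 to 0.56. Without that library it was 0.45, and with a pseudocount of 1 RPKM it was 0.20. The coefficient of variation among BAZ2A-ΔTAM libraries was 12.4%, where counting error alone would give 4.46%, with replicate 1 the farthest from the others. Among BAZ2A-WT libraries it was 4.60%, beside 5.14% from counting.

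*Dppa4*, which encodes the partner of DPPA2, lies 16.2 kb upstream of the *Dppa2* entry on the same strand of chromosome 16, from 48283735 to 48294292, and has 7 exons as *Dppa2* does. BAZ2A-WT libraries had 0.932, 0.936, 0.982 and 0.978 RPKM (489 to 533 reads). BAZ2A-ΔTAM libraries had 0.847, 0.880, 0.917 and 0.837 RPKM (404 to 516 reads). Every BAZ2A-ΔTAM library was lower, but the nearest pair of libraries was only 0.0147 RPKM apart. Mean levels were 0.957 ± 0.0268 RPKM in BAZ2A-WT and 0.870 ± 0.0364 RPKM in BAZ2A-ΔTAM ESCs (SD, n = 4). The log2 fold change was -0.12 ± 0.034 (SE), with a 95% interval of -0.20 to -0.045, and with a pseudocount of 1 RPKM it was -0.066. This was the smallest difference of the 4 genes. The coefficients of variation, 2.80% and 4.18%, were below those from counting alone, 4.43% and 4.66%.

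The partners thus went in opposite directions by small amounts. The ratio of *Dppa2* to *Dppa4*, with reads divided by the length of exons, was 0.624, 0.688, 0.601 and 0.622 in BAZ2A-WT libraries and 0.780, 0.997, 0.90 and 1.03 in BAZ2A-ΔTAM libraries. *Dppa4* was thus the higher of the pair in every BAZ2A-WT library. No order is read in BAZ2A-ΔTAM libraries, where the ratio came near 1 and part of the reads of both genes can also be placed on pseudogenes. The means of this ratio were 0.634 ± 0.0378 and 0.928 ± 0.113 (SD, n = 4 each).

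*Dppa3*, the maternal and germline factor that opposes UHRF1, lies on the plus strand of chromosome 6 from 122626410 to 122630272 and has 4 exons. BAZ2A-WT libraries had 0.339, 0.347, 0.271 and 0.316 RPKM, from 51 to 69 reads. BAZ2A-ΔTAM libraries had 1.23, 1.35, 1.50 and 1.33 RPKM, from 214 to 309 reads. The lowest BAZ2A-ΔTAM library was 0.879 RPKM above the highest BAZ2A-WT library, a gap wider than the range within either condition. Mean levels were 0.318 ± 0.0340 RPKM in BAZ2A-WT and 1.35 ± 0.114 RPKM in BAZ2A-ΔTAM ESCs (SD, n = 4). The log2 fold change was 1.80 ± 0.075 (SE), with a 95% interval of 1.62 to 1.97. Because the gene is low in BAZ2A-WT ESCs, the pseudocount holds this value down. With limma voom on the recovered reads it was 2.08 ± 0.12 (SE), and with a pseudocount of 1 RPKM it was 0.83.

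*Dppa3* was the member with the largest change, ranked 17 of 9000 genes from the top of the log2 fold changes. *Dppa2* ranked 635 from the top, *Dppa5a* 808 from the bottom and *Dppa4* 2135 from the bottom. Over all genes tested, the median log2 fold change was 0.011, with 5% of genes under -0.39 and 5% above 0.46, so that only *Dppa3* lay outside this range. Its spread in BAZ2A-WT ESCs, a coefficient of variation of 10.7%, was close to the 12.7% from counting, and in BAZ2A-ΔTAM ESCs it was 8.41% beside 6.18%. The near-identical pseudogene *Dppa3-ps* held 0 to 3 reads in each library.

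**Figure D2:**
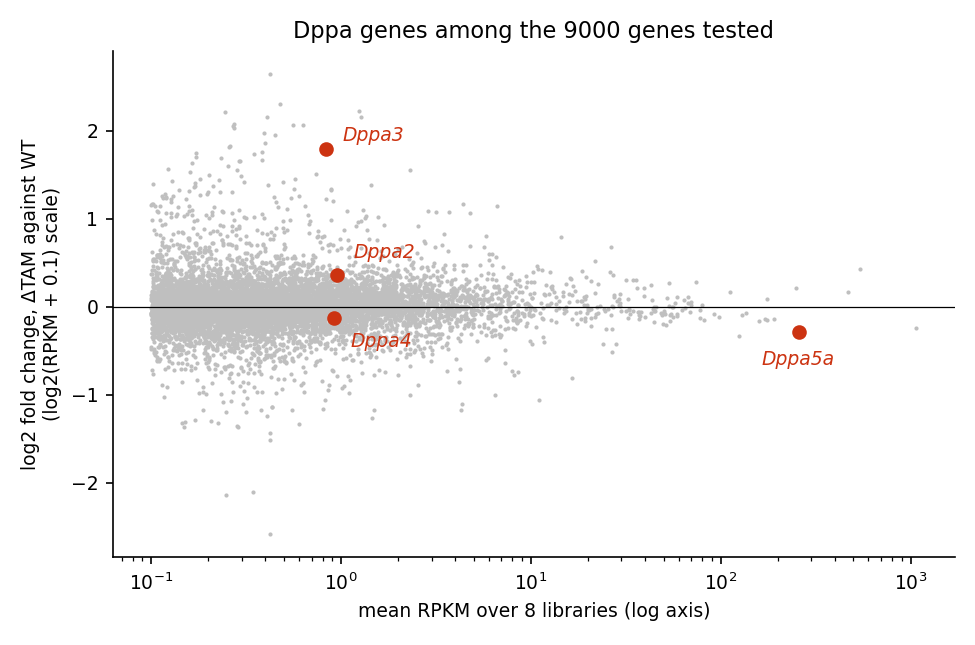
Log2 fold change of BAZ2A-ΔTAM against BAZ2A-WT ESCs (log2(RPKM + 0.1) scale) against the mean RPKM over 8 libraries (log axis) for the 9000 genes tested, each a grey point, with the 4 Dppa genes in red. *Dppa3* lies high above the cloud at 1.80, *Dppa2* (0.37) and *Dppa4* (-0.12) lie inside it, and *Dppa5a* (-0.28) lies at the right, 4th by level among the genes shown.

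*Dppa5a*, which encodes the KH-domain protein, is a compact gene of 3 exons on the minus strand of chromosome 9 from 78367052 to 78368177. BAZ2A-WT libraries had 288, 287, 278 and 280 RPKM (15253 to 16609 reads). BAZ2A-ΔTAM libraries had 223, 236, 244 and 228 RPKM (11344 to 14930 reads). Every BAZ2A-ΔTAM library was lower, and 33.9 RPKM separated the nearest libraries of the conditions. Mean levels were 283 ± 5.05 RPKM in BAZ2A-WT and 233 ± 9.33 RPKM in BAZ2A-ΔTAM ESCs (SD, n = 4), a difference of -17.7%. The log2 fold change was -0.28 ± 0.031 (SE), with a 95% interval of -0.35 to -0.21. It was -0.28 ± 0.026 (SE) with limma voom, but -0.19 after quantile normalization. With this many reads, counting error was only 0.789% and 0.872%, below the observed coefficients of variation of 1.78% and 4.00%.

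*Dppa5a* took 0.210% to 0.218% of all reads on genes in BAZ2A-WT libraries and 0.169% to 0.184% in BAZ2A-ΔTAM libraries. It was 1 of 14 genes that averaged 100 RPKM or more, a level chosen after its values were seen. The median log2 fold change of these 14 was -0.11, and *Dppa5a* had the 2nd lowest value among them, after *Eef2*, a translation elongation factor (-0.33).

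To compare the members with each other, reads were divided by the length of exons and scaled to a common sum (TPM). In BAZ2A-WT ESCs *Dppa5a* had 13384 ± 193 TPM, *Dppa4* 158 ± 5.87, *Dppa2* 100 ± 4.49 and *Dppa3* 35.8 ± 3.73 (SD, n = 4 each). Ranges over libraries did not overlap between any neighbours in this order. In BAZ2A-ΔTAM ESCs *Dppa5a* had 11032 ± 334 TPM, *Dppa3* 152 ± 11.4, *Dppa4* 144 ± 5.0 and *Dppa2* 134 ± 15.3 (SD, n = 4 each). *Dppa3* was therefore the lowest of the 4 in BAZ2A-WT ESCs, whereas in BAZ2A-ΔTAM ESCs its range over libraries overlapped that of *Dppa4*, and the range of *Dppa4* overlapped that of *Dppa2*. Among the 39798 genes given a length, *Dppa5a* was the 3rd most abundant transcript in BAZ2A-WT ESCs and the 6th in BAZ2A-ΔTAM ESCs. *Dppa3* moved from rank 4712 to rank 1171.

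*Dppa5a* was far above the others in every library. It held 94.3% to 94.6% of the reads on the 4 genes in BAZ2A-WT libraries and 91.2% to 92.0% in BAZ2A-ΔTAM libraries. In TPM, *Dppa5a* exceeded *Dppa3* by 377 ± 37.5-fold in BAZ2A-WT ESCs and by 72.6 ± 3.33-fold in BAZ2A-ΔTAM ESCs (SD, n = 4 each). The sum over the 4 genes went from 13678 ± 194 to 11462 ± 355 TPM, which follows *Dppa5a*.

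The directions of the 4 differences were the same under all processing that gave a value. Leaving out each library in turn gave 0.33 to 0.45 for *Dppa2*, 1.74 to 1.84 for *Dppa3*, -0.15 to -0.11 for *Dppa4* and -0.31 to -0.26 for *Dppa5a*. With only genes averaging 1 RPKM or more kept, *Dppa2*, *Dppa3* and *Dppa4* had no value.

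**Figure D3:**
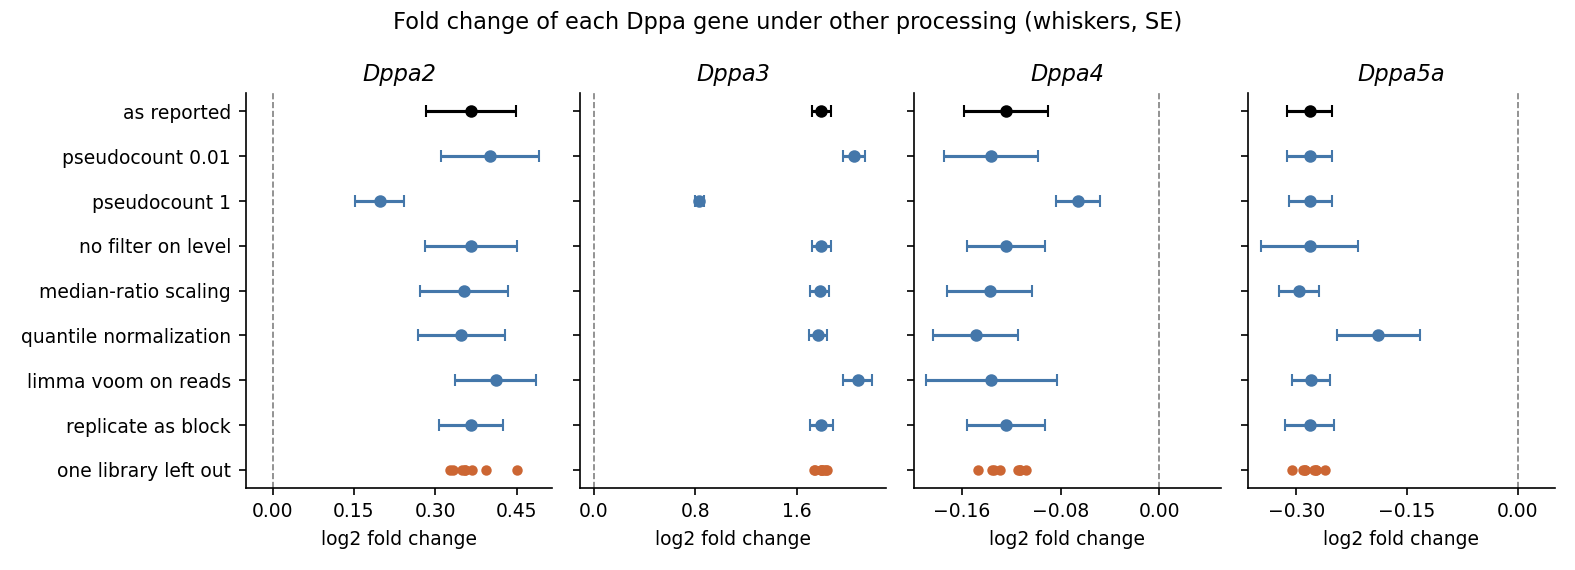
Log2 fold change (BAZ2A-ΔTAM against BAZ2A-WT) of each Dppa gene as reported (black), under 7 other ways of processing (blue, whiskers are the SE) and with each of the 8 libraries left out (orange points), where the dashed line marks 0. The values of *Dppa3* run from 0.83 (pseudocount of 1) to 2.08 (limma voom), and no point of any gene crosses 0.

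Genes that work with the Dppa proteins were read from the limma fit over all genes, in which 35.8% of 9000 genes passed an adjusted p under 0.05, 19.9% higher and 15.9% lower. The lists were chosen with earlier results of these data known, so their counts and p-values are given as a description only. For genes downstream of DPPA2 and DPPA4, the list held 19 genes of the 2-cell programme. Without a filter on level, 16 of the 18 with any read were higher in BAZ2A-ΔTAM ESCs and none lower, where 14.8% of 25438 genes passed, 7.63% higher and 7.14% lower. With the filter only 9 could be tested, and as 8 of these averaged under 0.1 RPKM in BAZ2A-WT ESCs and passed only through their level in BAZ2A-ΔTAM ESCs, nothing is read from their count. The last of the 19, *Tdpoz1*, was at 0. *Zscan4a*, a member of a cluster of zinc finger genes of the 2-cell embryo, had 24 to 30 reads in BAZ2A-WT and 111 to 171 reads in BAZ2A-ΔTAM libraries, a log2 fold change of 1.73 ± 0.057 (SE; limma, adjusted p = 3.0e-06). *Tcstv3* (1.65), *Zscan4d* (1.50) and *Zscan4c* (1.38) had positive values too. Each averaged under 0.1 RPKM in BAZ2A-WT ESCs, so that the filter set their side of 0, and without a filter they kept direction and call. Near-identical copies within the *Zscan4*, *Tcstv* and *Usp17l* families may share reads. The whole list summed to 0.639 to 0.795 RPKM in BAZ2A-WT and 3.49 to 3.72 RPKM in BAZ2A-ΔTAM libraries, so these transcripts were rare in both.

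Of the DNA methylation genes around DPPA3, 9 of 13 could be tested, of which 5 were higher and 1 lower. Over all genes tested, 19.9% were higher and 15.9% lower. *Uhrf1*, whose protein DPPA3 binds, had 5.52 ± 0.106 RPKM in BAZ2A-WT and 5.87 ± 0.130 RPKM in BAZ2A-ΔTAM ESCs (SD, n = 4), and its log2 fold change of 0.087 passed the test (limma, adjusted p = 0.030). *Dnmt1*, the maintenance methyltransferase, had a log2 fold change of -0.031 and did not pass. *Dnmt3b*, a de novo methyltransferase, had the largest value among those tested, 0.54 ± 0.037 (SE). *Uhrf2* (0.18) and *Ehmt2* (0.17), an H3K9 methyltransferase, were higher too, and *Ehmt2* lost the call without BAZ2A-ΔTAM replicate 4 (limma, adjusted p = 0.052) and with the replicate number as a block (0.065). *Tet2*, a 5-methylcytosine dioxygenase, had -0.20 and lost the call without replicate 1, 2, 3 or 4 of BAZ2A-WT or replicate 2 or 3 of BAZ2A-ΔTAM ESCs (limma, adjusted p of 0.056 to 0.096). It also lost the call without a filter on level (limma, adjusted p = 0.083). With limma voom, which could test all 13, 5 were higher and 4 lower, where 43.9% of 12657 genes passed, 21.9% in each direction. The largest value there was that of *Dnmt3l*, a cofactor of de novo methylation, at -0.76, followed by *Dnmt3b* at 0.72, and *Tet3* had -0.40. *Dppa3* had 2.08 on that scale.

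Of 10 primordial germ cell genes, a cell type for which DPPA3 is a marker, 8 could be tested, of which 5 were higher and 1 lower, with a median log2 fold change of 0.13. The shares over all genes tested were 19.9% higher and 15.9% lower. The membrane protein genes *Ifitm3* (0.32) and *Ifitm1* (-0.39), of the same family, went in opposite directions. *Alpl*, the alkaline phosphatase used to stain germ cells (0.19), and *Tfap2c*, a transcription factor of germ cell specification (0.19), were higher. Of 16 germline genes that promoter methylation silences, only *Dazl*, an RNA-binding protein gene, and *Tex19.1* reached the level for testing, and both were higher. *Dazl* had 0.824 ± 0.0621 RPKM in BAZ2A-WT and 1.35 ± 0.0367 RPKM in BAZ2A-ΔTAM ESCs (SD, n = 4). Its log2 fold change was 0.66. *Tex19.1* had 0.32 and lost the call without BAZ2A-WT replicate 2 (limma, adjusted p = 0.0504). With limma voom 12 of the 16 could be tested, with 3 higher and 3 lower, beside the 21.9% of all genes that passed in each direction.

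For DPPA5A, the list held 9 genes of related KH proteins and of the maternal complex they form in the oocyte. *Khdc3*, a KH-domain gene of that complex, had 10 to 22 reads in BAZ2A-WT and 82 to 115 reads in BAZ2A-ΔTAM libraries, a log2 fold change of 1.95 ± 0.14 (SE; limma, adjusted p = 7.9e-05). It was the only one of the 3 tested genes to pass without the changes of processing given next. *Ooep*, a KH-domain gene next to *Dppa5a*, had 0.14 (limma, adjusted p = 0.060) and passed with limma voom (adjusted p = 0.028), with the replicate number as a block (0.036) and among genes averaging 1 RPKM or more (0.046). *Dppa5a* itself was lower where *Khdc3* was higher. Of 11 other maternal-effect genes, only *Trim28* (0.19) and *Zfp57* (-0.18), partners in the protection of imprints, could be tested, and they went in opposite directions. Beside shares of 19.9% higher and 15.9% lower over all genes tested, 5 of 16 transcription factors of the naive state were higher and 6 lower. Their median was -0.012. The largest called values were those of *Nr0b1* (0.83), *Sox2* (-0.42), *Tbx3* (-0.41) and *Klf4* (-0.39), which lie on both sides of 0.

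**Figure D4:**
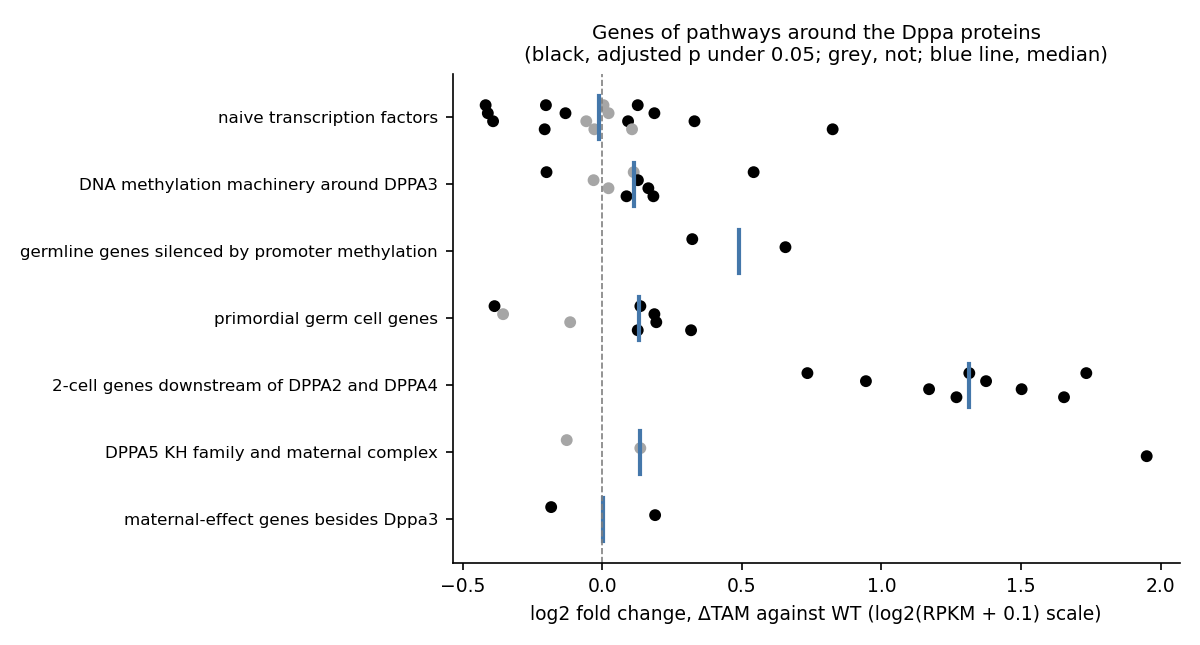
Log2 fold change (BAZ2A-ΔTAM against BAZ2A-WT, log2(RPKM + 0.1) scale) of the genes tested in 7 lists, where each point is a gene, black if its adjusted p was under 0.05 and grey if not, and the blue line is the list's median. The 9 genes of the 2-cell list lie at the right, 8 of which passed the filter on level only through BAZ2A-ΔTAM ESCs, so that their side of 0 was set by the filter.

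The genes around each locus were examined next, and the counts of called neighbours, 3 of 10, 2 of 10 and 3 of 10, stand beside the 35.8% of all genes tested that passed (19.9% higher and 15.9% lower), so that they are no result about the loci. Of the 5 nearest tested genes on each side of *Dppa3*, 1 was higher and 2 lower, with values between -0.33 and 0.13 beside 1.80 for *Dppa3*. *Gdf3*, a growth factor gene 16.3 kb upstream, had -0.041, and *Nanog*, 77.2 kb downstream, had 0.023, neither of which passed. *Phc1*, a Polycomb subunit gene at 286 kb, had -0.33. *Apobec1* (0.13) and *Rimklb* (-0.092) passed at adjusted p of 0.039 and 0.042 (limma) and lost the call with most libraries left out, *Apobec1* without each library but BAZ2A-WT replicate 3 (adjusted p of 0.056 to 0.096) and *Rimklb* without each but BAZ2A-ΔTAM replicate 4 (0.057 to 0.102). Both also lost it without a filter on level (limma, adjusted p of 0.066 and 0.059) and with the replicate number as a block (0.071 and 0.091). *Apobec1* lost it after quantile normalization too (0.077).

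The nearest tested gene to *Dppa2* and *Dppa4*, *Gm7204*, was 91.3 kb from the former and 64.5 kb from the latter, with 1 to 8 reads, and *Morc1*, 112 kb beyond *Dppa2*, had 0.088 (limma, adjusted p = 0.094). *Morc1* passed with limma voom (0.15, adjusted p = 0.0045) and without BAZ2A-ΔTAM replicate 1 (limma, adjusted p = 0.046). Of the 5 nearest tested genes on each side, *Zbtb11* was higher (0.17) and *Abhd10* lower (-0.22), at 7654 kb from *Dppa2* and 2541 kb from *Dppa4*. *Zbtb11* passed with all libraries (limma, adjusted p = 0.039) and without BAZ2A-ΔTAM replicate 3, but not without any other library (adjusted p of 0.055 to 0.093). It also lost the call without a filter on level (limma, adjusted p = 0.073), after quantile normalization (0.061) and with the replicate number as a block (0.081).

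Around *Dppa5a*, *Gsta4*, a glutathione transferase gene at 158 kb, was higher (0.19), and *C920006O11Rik* (-0.31) and *Eef1a1*, a translation elongation factor gene 110 kb away (-0.16), were lower. *Eef1a1* fell from 167 ± 3.43 to 150 ± 2.81 RPKM (SD, n = 4 each), and lost the call without a filter on level (limma, adjusted p = 0.060). *C920006O11Rik* rested on 11 to 25 reads and lost the call without replicate 2 or 3 of BAZ2A-WT or replicate 1 or 3 of BAZ2A-ΔTAM ESCs (limma, adjusted p between 0.060 and 0.067). It lost the call without a filter on level (limma, adjusted p = 0.057) and with limma voom (0.060) as well. The other 7 of the 10 neighbours did not pass.

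**Figure D5:**
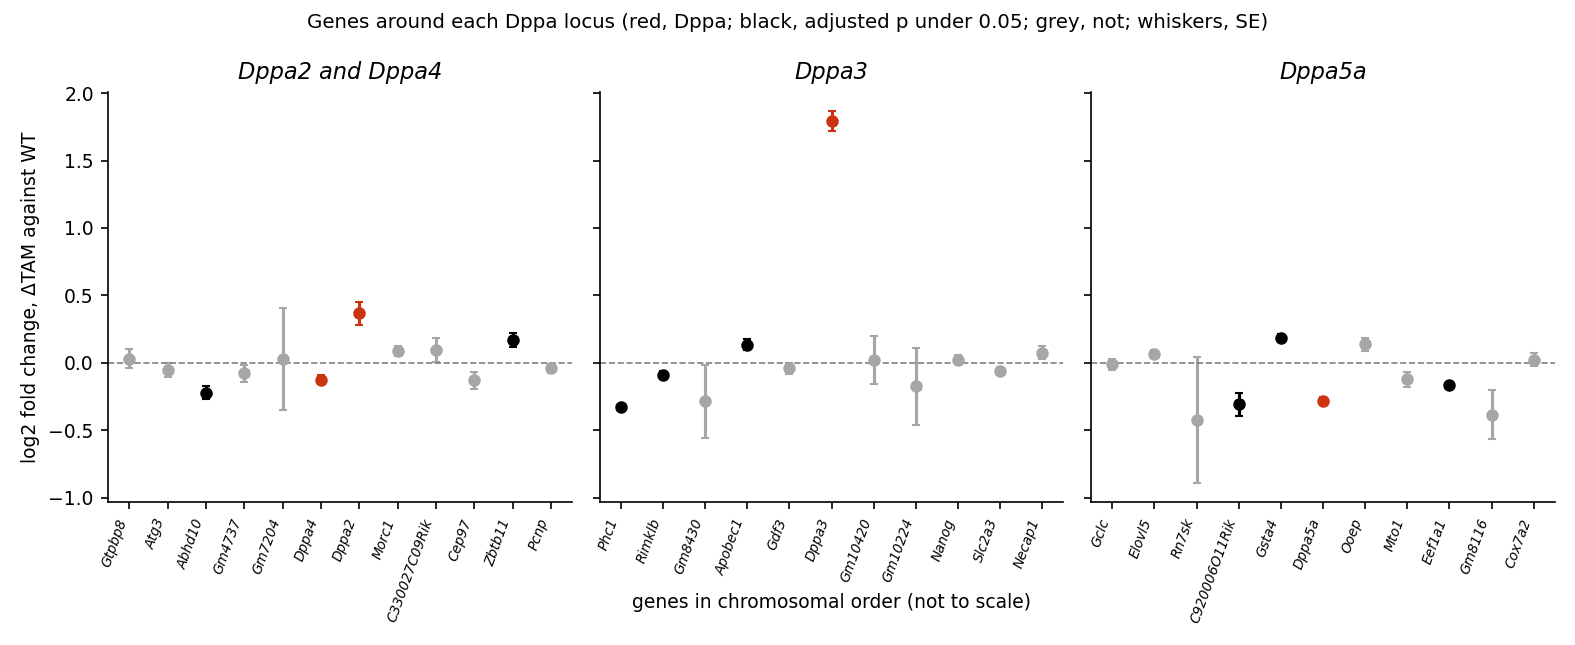
Log2 fold change (BAZ2A-ΔTAM against BAZ2A-WT, whiskers are the SE) of the 5 nearest tested genes on each side of each Dppa locus, in chromosomal order and not to scale, with Dppa genes in red, genes of an adjusted p under 0.05 in black and others in grey. *Dppa3* stands at 1.80 among neighbours between -0.33 and 0.13, and *Dppa4* and *Dppa2* lie side by side on opposite sides of 0.

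Genes with the most similar pattern were sought by Pearson r of log2(RPKM + 0.1) over the 8 libraries among the genes averaging 1 RPKM or more (2147 or 2148 others). The libraries fall into the 2 conditions, so that r largely follows the difference between them, and the r of deviations from the condition means is given beside it. For *Dppa3* the most similar gene was *Cdkn1a*, a cell cycle inhibitor, with r = 0.998 over all libraries and 0.886 within conditions, followed by *D1Pas1* (0.995 and 0.529) and *Xbp1* (0.994 and 0.582). For *Dppa5a* they were *Gars* (0.991 and 0.908), *Hspa9* (0.990 and 0.846) and *Eef1a1* (0.989 and 0.864), a tRNA ligase, a mitochondrial chaperone and an elongation factor. For *Dppa2* they included *Rpl30* (0.971 and 0.890) and *Psenen* (0.969 and 0.882). For *Dppa4* they were *Slc20a1* (0.958 and 0.861), *Eif3j2* (0.958 and 0.865) and *Imp3* (0.956 and 0.840).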

How the data were processed

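Poly(A) RNA was sequenced as single-end 100-base reads (stranded kit). Before deposit, the authors filtered out ribosomal reads, clipped adapters (Trimmomatic 0.36 per the submitters' processing notes), aligned with STAR (mm10) and took coverage of exons by their own pipeline. The deposited values are RPKM per gene for each library, not pooled. Whether counting used strand is not given in the sources used here. Of 51288 entries, 387 repeats of a symbol were set aside. RPKM times the gene span came in whole multiples of a step for 100% of the low values checked (tolerance 0.05 reads), so reads were recovered, and these were 14.8% to 15.0% of the total in the RPKM denominator. No sample column was left unused.

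limma 3.58.1 (R 4.3.3; lmFit, eBayes with trend) was run on log2(RPKM + 0.1) for genes averaging 0.1 RPKM or more, without covariates, with Benjamini-Hochberg adjustment over 9000 genes and a threshold of 0.05. limma voom on recovered reads (mean of at least 10) was the alternative, calling 5551 of 12657 genes. Scripts were tested on simulated data. TPM and sequences used GENCODE vM21 exons, and tables were made in Python 3.11.15.

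The members and lists were chosen with earlier results of these data known. Genes named are the members, *Baz2a*, other Dppa entries, up to 4 called genes of each list with the largest changes, 5 tested neighbours on each side of a locus and the 3 genes most like each member, of which 1 is not reported here. *Uhrf1*, *Dnmt1*, *Dnmt3l*, *Tet3*, *Ooep*, *Tdpoz1* and *Eef2* were named after their values were seen. Alternatives were other pseudocounts, filters and scalings, voom, a replicate block, no variance trend and leaving out each library. The 95% intervals rest on the spread between libraries in the limma fit, and the counting errors given beside them cover counting only.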

Additional observations from a re-analysis of the deposited data

Results flagged for a closer look

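Among 112 groups of 4 libraries examined for the named genes, 2 held a library far from the others, fewer than the 1 in 20 that chance gives. *Zscan4c*, a gene of the 2-cell list, had 0.0646 RPKM in BAZ2A-WT replicate 4 and 0.0445 to 0.0470 RPKM in the others, from 11 to 16 reads. *Gtpbp8*, among the nearest tested genes to *Dppa4*, had 0.370 RPKM in BAZ2A-ΔTAM replicate 3 and 0.303 to 0.311 RPKM in the others. No Dppa gene had such a library.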

How the results depend on the processing

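The differences of *Dppa2*, *Dppa3*, *Dppa4* and *Dppa5a* kept their direction under every setting that gave a value. They moved by more than their spread with a pseudocount of 1 RPKM for *Dppa2* (0.20), *Dppa3* (0.83) and *Dppa4* (-0.066), with a pseudocount of 0.01 RPKM (2.05) and voom (2.08) for *Dppa3*, and with quantile normalization for *Dppa5a* (-0.19). A larger pseudocount shrinks low genes by construction, and the cause of the quantile shift was not tested. Calls over all genes went from 3225 to 989 with genes averaging 1 RPKM or more (2148 genes tested) and to 5551 with voom (12657 tested). At 1 RPKM the lists had 6 calls for naive factors, 3 for DNA methylation, 3 for germ cells and 0 for 2-cell genes, with fewer genes tested (0 of the 2-cell list). Without a filter the germline list had 4 calls and the 2-cell list 16, and with voom the germline list had 6 and the KH list 2. Leaving out a library gave 1 to 2 germline calls. Neighbour calls fell to 1 at each of the 3 loci without a filter, to 0 (*Dppa2* and *Dppa4*) and 1 (*Dppa3*) at 1 RPKM, and to 1 for *Dppa2* and *Dppa4* with quantile normalization, and rose to 4 there with voom. They were 1 to 2 for *Dppa2* and *Dppa4* and 1 to 2 for *Dppa3* with a library left out. The r of *Dppa3* and *Cdkn1a* fell to 0.886 within conditions. Of 52 other named genes, 33 changed neither direction nor call, 8 lost and 5 gained a call and 6, none of them called, changed direction. These were *Gm7204* (-0.012 with a pseudocount of 1, -0.040 after quantile normalization, -0.19 to 0.29 with a library left out), *Cox7a2* (-0.026 after quantile normalization, -0.018 to 0.049), *Gtpbp8* (-0.020 to 0.061), *Gm10420* (-0.13 to 0.11), *Gm10224* (-0.42 to 0.031) and *Gclc* (-0.035 to 0.012). Deviations of libraries with the same number had r of 0.024 to 0.062 over 4 pairs, where all pairs lay between -0.061 and 0.062. These r were small, but 3 of 4 libraries correlated best with their own number. Whether the number stands for a shared culture or batch was not tested. With the replicate block, calls over all genes were 2796, neighbour calls 1 (*Dppa2* and *Dppa4*) and 1 (*Dppa3*), and KH list calls 2. Depth limits *Dppa3* in BAZ2A-WT ESCs, at 51 to 69 reads a library, and the 2-cell and germline lists.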

Other observations

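The members' deviations from their condition means were compared over the 8 libraries as values only. *Dppa3* and *Dppa5a* had r = 0.853 within conditions, where over all libraries r was -0.933, so that the sign turned. For *Dppa2* and *Dppa5a* the values were 0.544 and -0.749, for *Dppa2* and *Dppa3* 0.506 and 0.878, and for *Dppa4* and *Dppa5a* 0.476 and 0.880. For *Dppa2* and *Dppa4* they were 0.193 and -0.665, and for *Dppa3* and *Dppa4* 0.130 and -0.829. The points share libraries and their scaling, and no test was made.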
